A study of Homo sapiens with 15 samples.

Results

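This report sets 3 arrays of cells given fluid from a colon simulation run with 2% polydextrose against 3 arrays of cells given fluid from a simulation run with 1%, 6 of the 15 arrays of the study. The arrays were chosen by their titles, with earlier results of these data known. They came from vessels 2, 3 and 4 of each simulation, which stand for the transverse colon, the descending colon and the sigmoid and rectal part. The cells were Caco-2, a line from a human colorectal adenocarcinoma, kept in the non-differentiated state. In both groups the cells had serum-free DMEM for 24 h with 10% (by volume) of a 48 h simulation fluid that had been spun to remove bacteria and debris, so the groups differed in the polydextrose percentage put into the simulator. The matching 3 arrays of the simulation with 0% polydextrose gave the starting point of the dose series. Vessel 1, the ascending colon, and single arrays of plain medium, 100 mM NaCl and 5 mM butyrate are used only for comparison.

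Polydextrose is a branched glucose polymer that human enzymes digest poorly and that gut bacteria ferment to short-chain fatty acids, among them butyrate. Colon cells take up butyrate as a fuel, and at higher levels it inhibits histone deacetylases, slows the cell cycle of tumour lines and turns on genes that were silent. The question was which genes moved further when the simulator received more polydextrose and which had already reached their level at 1%.

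Each concentration was 1 simulation, and its vessels are connected in sequence. The 3 arrays of a group are therefore 3 vessels of 1 run and not 3 independent runs: p-values measure the spread among these arrays, and a difference between the runs cannot be told apart from one of concentration. Values are log2 signals, and 8595 genes were tested, those that reached 5 in 3 or more of the 6 arrays, each read from 1 probe set. The share of all genes at 5 or more was 42.27% to 44.1% over the 15 arrays. The log2 difference between the 3′ and 5′ probe sets of ACTB, a measure of RNA degradation, was 0.547 to 0.551 in the 2% arrays and 0.366 to 0.534 in the 1% arrays, and its part in the differences was not tested. Of 12 markers of intestinal epithelium, 7 were at 5 or more in all 6 arrays (EPCAM, CDH1, CDH17, KRT8, KRT18, KRT19 and KRT20), while VIL1, CDX1, CDX2, LGALS4 and GPA33 were under 5 in all 6. The highest of these 5 was CDX2, with 3.44 to 4.09 at 2% and 4.16 to 4.33 at 1%. What the 5 low markers mean for the identity of the line was not tested. The summed linear signal of the 12 markers was 63100 to 63600 in the 2% arrays and 64800 to 66600 in the 1% arrays. All 7 leukocyte markers, all 5 endothelial markers and 7 of 8 fibroblast markers were under 5 in all 6 arrays. The exception was COL1A1, with 7.66 to 8.26 at 2% and 6.86 to 7.29 at 1%, and the part of such cells in the differences was not tested.

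The second dose step, 2% minus 1%, passed the test for 154 genes, 1.79% of those tested (limma, Benjamini-Hochberg adjusted p under 0.05). Of these 44 rose (0.512%) and 110 fell (1.28%). With each array centred on its median, 67 rose and 102 fell of 169 that passed. The changes were moderate: the median size among the 154 was 0.57 on the log2 scale, 8 rises and 6 falls were 2-fold or more, and the smallest passing change was 0.35. All 154 kept their direction in vessels 2, 3 and 4, and in 153 the 3 values at 2% did not overlap the 3 at 1%. Over all genes tested, 11.8% lay wholly above and 16.2% wholly below. The genes that rose included ZCCHC12, DHRS2, DNER and the growth arrest gene CDKN1C. Those that fell included 13 genes of mitosis, the stem cell marker LGR5, HMGA2, ALDH3A1 and the ion transport genes KCNE3 and SCNN1A. The calls rested on thin replication: the 6 arrays fitted without the 0% arrays gave 0 genes after adjustment (1675 at an unadjusted p under 0.05, against 1919, or 22.3%, with the 0% arrays), and leaving out 1 of the 9 arrays gave 0 to 92.

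ZCCHC12, a zinc finger protein described in mouse as a coactivator in bone morphogenetic protein signalling, had 7.72, 7.97 and 7.63 in vessels 2, 3 and 4 at 2%, against 6.70, 6.08 and 5.82 at 1%. All 3 arrays at 2% lay above all 3 at 1%, a difference of 1.57 ± 0.16 (SE; 2.97-fold; adjusted p = 0.0157). DHRS2, a short-chain dehydrogenase known to be induced by butyrate, had 7.31, 7.66 and 6.85 at 2%, against 6.24, 6.06 and 5.60 at 1%. It rose by 1.31 ± 0.19 (adjusted p = 0.0302), and the groups were apart, with vessel 4 lowest in both. DNER, a membrane protein with EGF-like repeats that can bind Notch, had 8.06, 7.84 and 7.42 at 2%, against 6.99, 6.31 and 6.52 at 1%. The difference was 1.17 ± 0.13 (adjusted p = 0.0159), and every value at 2% was above every value at 1%. EGR3, an early growth response transcription factor, had 10.02, 10.71 and 10.55 at 2%, against 9.26, 9.56 and 9.31 at 1%. It rose by 1.05 ± 0.17 (adjusted p = 0.0338), with vessel 2 the lowest in both groups. CDKN1C, the cyclin-dependent kinase inhibitor p57, had 10.73, 11.01 and 10.87 at 2%, against 10.04, 10.14 and 10.26 at 1%. It rose by 0.72 ± 0.09 (1.65-fold; adjusted p = 0.0194).

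The other 7 of the 12 largest rises with all 6 arrays at 5 or more ranged from 0.59 to 0.75. They were MCRIP1, which binds the CtBP corepressor (0.75), the homeobox factor DLX2 (0.69), SUOX, the mitochondrial sulfite oxidase (0.69), TENT5C, a poly(A) polymerase (0.61), RBBP5, a core subunit of histone H3 lysine methyltransferases (0.61), DEPDC7 (0.60) and the semaphorin SEMA6A (0.59). In the ascending colon, where there was 1 array each, RBBP5 had a difference of -0.69 and the other 6 were higher at 2%. A further 4 genes rose 2-fold or more with 1% arrays under 5. These were 1 array for PLIN5, 2 for SLAIN1 and all 3 for ANKRD1 and SSBP2. ANKRD1 and SSBP2 met the filter only through their 2% arrays, which favours a rise, so their rises are description only. PLIN5, a lipid droplet coat protein, had 6.22, 7.77 and 6.67 at 2%, against 4.89, 5.30 and 5.24 at 1%, and rose by 1.74 ± 0.30 (adjusted p = 0.041). ANKRD1, a nuclear ankyrin protein and YAP target, rose by 1.12, SLAIN1, a microtubule plus-end protein, by 1.09, and SSBP2, which binds single-stranded DNA, by 1.01. PLIN5, SLAIN1 and SSBP2 were singled out after their values were seen.

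**Figure D1:**
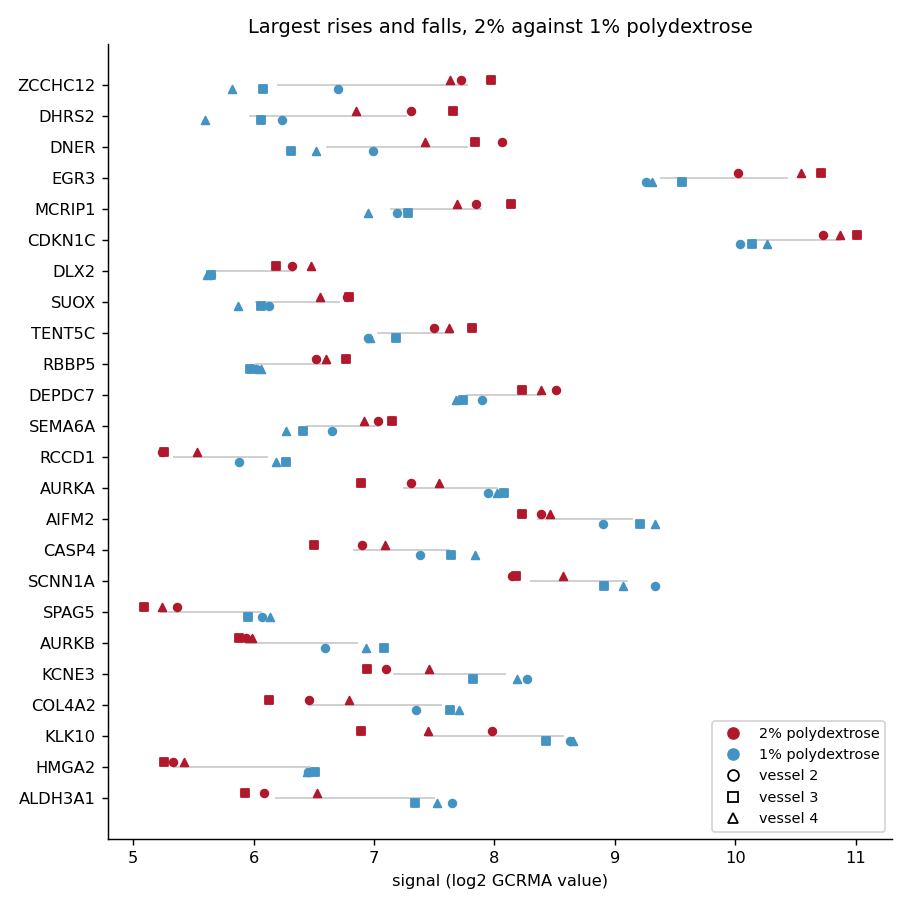
Signal (log2 GCRMA value, horizontal axis) of the 12 largest rises and the 12 largest falls among genes that passed and were at 5 or more in all 6 arrays. Each point is 1 array, red for 2% and blue for 1% polydextrose, with the vessel shown by the marker, and the grey line joins the group means. ZCCHC12 had the largest rise drawn (1.57) and ALDH3A1 the largest fall (-1.32), and in every gene drawn the 2 colours do not overlap.

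Among the falls, ALDH3A1, an aldehyde dehydrogenase that detoxifies aromatic and lipid aldehydes, had 6.09, 5.93 and 6.53 at 2%, against 7.65, 7.34 and 7.52 at 1%. The difference was -1.32 ± 0.14 (2.49-fold lower; adjusted p = 0.0159), and the groups did not overlap. HMGA2, an architectural chromatin protein of embryonic and tumour cells, had 5.33, 5.26 and 5.42 at 2%, against 6.45, 6.51 and 6.44 at 1%. The vessels of a group hardly differed, and HMGA2 fell by 1.13 ± 0.09 (adjusted p = 0.012), which with EPS8L3 was the smallest adjusted p of the comparison. COL4A2, a chain of basement membrane collagen, had 6.46, 6.13 and 6.79 at 2%, against 7.35, 7.63 and 7.71 at 1%, a difference of -1.11 ± 0.13 (adjusted p = 0.0165). KCNE3, the subunit that keeps the KCNQ1 potassium channel open in colon crypts, had 7.10, 6.94 and 7.46 at 2%, against 8.27, 7.82 and 8.19 at 1%, a difference of -0.93 ± 0.11 (adjusted p = 0.0196). SCNN1A, the alpha subunit of the epithelial sodium channel, had 8.15, 8.18 and 8.57 at 2%, against 9.33, 8.91 and 9.07 at 1%, a difference of -0.80 ± 0.14 (adjusted p = 0.0458). For all 3 genes the lowest value at 1% was above the highest at 2%. The other members of the 12 were KLK10, a secreted serine protease (-1.13), the spindle proteins AURKB (-0.93), SPAG5 (-0.83) and AURKA (-0.77), the inflammatory caspase CASP4 (-0.80), AIFM2, an oxidoreductase that limits lipid peroxidation (-0.78), and RCCD1 (-0.77). EPS8L3, a relative of the actin regulator EPS8, and EVA1C also fell 2-fold or more, with 2 and 3 of the 2% arrays under 5, by 1.34 and 1.07, and were singled out after their values were seen. EVA1C met the filter only through its 1% arrays, which favours a fall.

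Mitosis was the gene list with the most calls in the second step. Of its 41 members tested, 13 fell, beside 1.28% of all genes, 0 rose and 28 did not pass. The median difference was -0.44, against -0.02 over all genes. All 41 estimates were below 0, beside 4693 of 8595 over all genes. It was 40 of 41 after quantile normalization again or with each array centred on its median. The median was -0.44 in vessel 2, -0.64 in vessel 3 and -0.23 in vessel 4. The same list was lower at 1% than at 0%, where 36 of 41 fell, beside 6.06% of all genes, with a median of -0.59. In whole-culture RNA, fewer cells in mitosis and less of these RNAs per cell cannot be told apart.

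Among the 13 that fell, UBE2C, the ubiquitin-conjugating enzyme of the anaphase-promoting complex, had 7.69, 7.77 and 8.08 at 2%, against 8.50, 8.50 and 8.72 at 1%, a difference of -0.73 ± 0.07 (adjusted p = 0.0139). AURKB, the kinase of the chromosomal passenger complex, had 5.94, 5.88 and 5.99 at 2%, against 6.59, 7.08 and 6.93 at 1% (-0.93 ± 0.10; adjusted p = 0.0159). CENPF, a protein of the outer kinetochore, had 8.23, 8.39 and 8.59 at 2%, against 9.01, 9.18 and 9.18 at 1% (-0.72 ± 0.08; adjusted p = 0.0157). None of these 3 overlapped between the groups. CDC20, the activator of the anaphase-promoting complex, differed by -0.55, and CCNB1, cyclin B1, by -0.64. The spindle genes AURKA, HMMR, KIF2C, TPX2, PRC1, ASPM, DLGAP5 and NUSAP1 lay between -0.77 (AURKA) and -0.37 (NUSAP1). CDC25C (-0.89), BORA (-0.88) and BIRC5 (-0.61) had estimates as large but wider errors and did not pass, with adjusted p = 0.0738, 0.0697 and 0.164. Apart from AURKB, UBE2C and CENPF, members of this list were chosen for naming after their values were seen.

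Many promoters of mitotic genes carry a cell cycle homology region next to CCAAT boxes, through which the DREAM and MMB-FOXM1 complexes and NF-Y act. The promoters of 4 of the genes that fell are shown to let the letters be seen beside the values above (RefSeq, GRCh38.p14, a window that lies mostly before the gene start, 5′ to 3′ on the gene's strand). Capitals mark TTTGAA or TTCGAA, the cell cycle homology letters, and CCAAT, each on either strand, so that TTCAAA and ATTGG are the same letters on the other strand. They lie at chr1:214602945-214603244 (CENPF, plus strand), chr1:43358731-43359030 (CDC20, plus strand), chr1:197146620-197146919 (ASPM, minus strand) and chr17:8210176-8210475 (AURKB, minus strand).
CENPF: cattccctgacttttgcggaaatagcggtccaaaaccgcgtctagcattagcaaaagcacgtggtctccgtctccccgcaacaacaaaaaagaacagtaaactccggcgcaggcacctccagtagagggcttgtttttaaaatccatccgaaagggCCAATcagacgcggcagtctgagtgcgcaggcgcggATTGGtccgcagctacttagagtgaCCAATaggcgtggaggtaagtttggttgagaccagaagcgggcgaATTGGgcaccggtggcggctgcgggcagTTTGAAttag
CDC20: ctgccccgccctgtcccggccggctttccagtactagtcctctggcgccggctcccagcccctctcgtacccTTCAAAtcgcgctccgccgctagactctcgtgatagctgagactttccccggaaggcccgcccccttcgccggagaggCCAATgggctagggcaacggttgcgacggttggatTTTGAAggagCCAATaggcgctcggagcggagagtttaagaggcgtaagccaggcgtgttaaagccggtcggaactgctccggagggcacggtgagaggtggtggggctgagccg
ASPM: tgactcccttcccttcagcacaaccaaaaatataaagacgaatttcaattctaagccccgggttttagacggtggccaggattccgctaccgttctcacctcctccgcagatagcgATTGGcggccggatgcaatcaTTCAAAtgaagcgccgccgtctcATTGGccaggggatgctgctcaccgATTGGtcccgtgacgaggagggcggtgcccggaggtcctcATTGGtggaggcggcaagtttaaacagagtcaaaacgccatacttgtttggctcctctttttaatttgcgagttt
AURKB: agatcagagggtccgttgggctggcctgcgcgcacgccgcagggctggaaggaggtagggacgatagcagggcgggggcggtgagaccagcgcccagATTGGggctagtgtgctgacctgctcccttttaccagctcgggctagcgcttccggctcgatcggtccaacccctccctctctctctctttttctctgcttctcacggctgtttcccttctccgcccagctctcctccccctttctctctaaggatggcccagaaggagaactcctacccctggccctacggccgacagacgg
CENPF has 4 CCAAT matches and 1 TTTGAA, ASPM likewise 4 and 1, and CDC20 has 2 of each. AURKB has 1 CCAAT and neither TTTGAA nor TTCGAA in this window. No marked match overlaps another in these 4 windows. TTTGAA or TTCGAA was found in 28 of the 35 mitosis genes with a promoter in the table (80.0%), in 11.4% of the 7227 tested genes with one and in 16.6% of all 27305 promoters. CCAAT was found in 74.3%, 38.1% and 35.7% of the same groups. Of the 13 mitosis genes that fell, 10 had a promoter in the table, and 7 of these (70.0%) held TTTGAA or TTCGAA. A match of these letters is a description of the window and shows no binding.

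Genes of DNA replication did not pass in the second step. Of 29 tested, 0 passed in limma at an adjusted p under 0.05. An unadjusted p under 0.05 was found for 8, beside 22.3% of all genes. There were 25 estimates below 0, and the median was -0.19. The lowest were POLA2, a subunit of DNA polymerase alpha (-0.67; adjusted p = 0.0565), and ORC1, of the origin recognition complex (-0.51; adjusted p = 0.145). PCNA, the polymerase clamp, had 11.21, 11.16 and 11.35 at 2%, against 11.18, 11.22 and 11.23 at 1%, and the groups overlapped (difference 0.03, 95% interval -0.14 to 0.20). CCND1, cyclin D1, also overlapped (0.04, interval -0.25 to 0.32). Of 17 homologous recombination genes 1 fell, beside 1.28% of all genes. This was BARD1, a subunit of a ubiquitin ligase of recombination repair, with 6.22, 6.31 and 6.19 at 2%, against 6.60, 6.82 and 6.68 at 1% (-0.46 ± 0.06; adjusted p = 0.026). Among 16 regulators of the E2F and cell cycle network 0 passed, and 4 had an unadjusted p under 0.05, beside 22.3% of all genes.

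**Figure D2:**
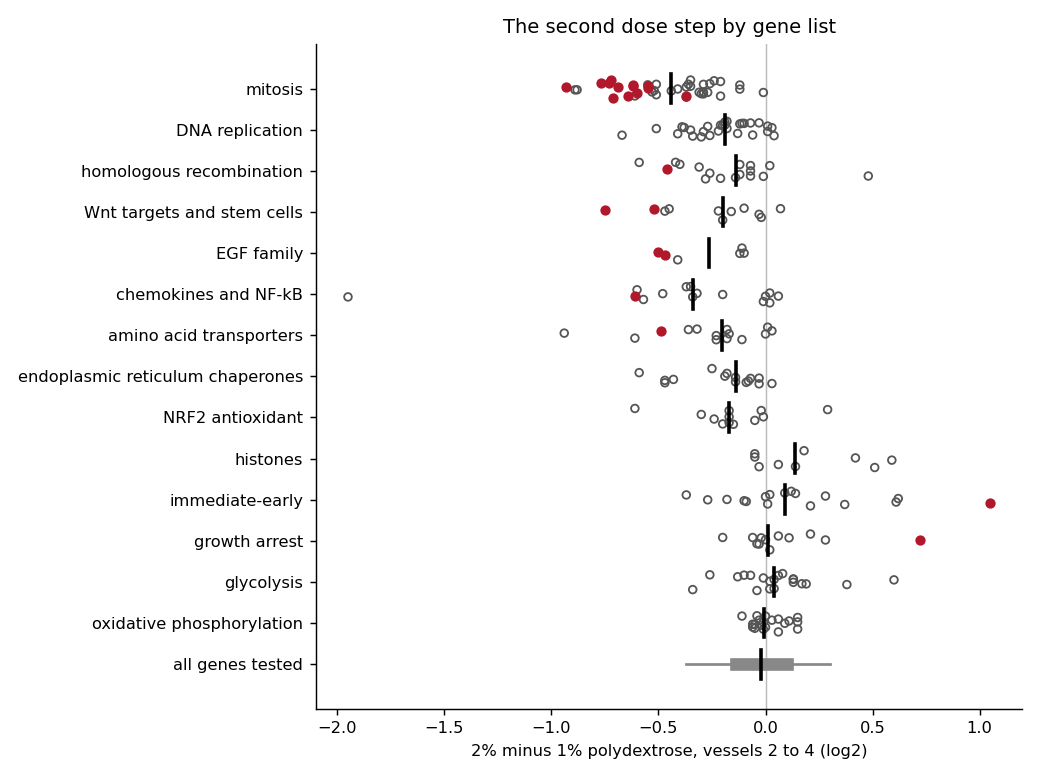
Difference between 2% and 1% polydextrose in vessels 2 to 4 (log2, horizontal axis) for the tested members of 14 gene lists, 1 circle a gene, filled red where it passed. The black bar is the list's median, and the bottom line shows all 8595 genes (thick line, middle 50%, thin line, middle 90%). Mitosis lies at a median of -0.44, while oxidative phosphorylation (-0.01) and glycolysis (0.04) lie near the median of all genes (-0.02).

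Of 11 Wnt and stem cell genes 2 fell, LGR5 and MYC, and of 6 EGF family genes 2 fell, beside 1.28% of all genes. LGR5, the receptor that marks intestinal stem cells, had 7.02, 6.37 and 6.80 at 2%, against 7.71, 7.41 and 7.33 at 1%, a difference of -0.75 ± 0.11 (adjusted p = 0.0302) with no overlap. In vessel 1 its single 2% array was 0.48 above the 1% array. MYC, the growth-promoting transcription factor downstream of Wnt, had 9.92, 9.92 and 10.10 at 2%, against 10.38, 10.57 and 10.56 at 1% (-0.52 ± 0.08; adjusted p = 0.0328). The median of the Wnt and stem cell list was -0.20. ASCL2, the stem cell transcription factor, had -0.47 (adjusted p = 0.101). The 2 EGF family genes that fell were ligands. EREG, epiregulin, had 11.40, 11.40 and 11.67 at 2%, against 12.03, 11.86 and 12.08 at 1% (-0.50; adjusted p = 0.0449), and TGFA had a difference of -0.47 (adjusted p = 0.0382). The receptors EGFR (-0.10) and ERBB3 (-0.12) did not pass. The receptor ERBB2 did not pass either, with estimates from -0.68 to -0.21 across settings. All 6 estimates of the EGF family list were below 0, with a median of -0.26.

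Of 15 chemokine and NF-kB genes 1 fell, beside 1.28% of all genes. This was the neutrophil chemokine CXCL5, with 11.23, 11.02 and 11.54 at 2%, against 11.93, 11.73 and 11.97 at 1% (-0.61 ± 0.10; adjusted p = 0.0328). IL33, an alarmin cytokine, had the lowest estimate of the list with 4.28, 3.23 and 4.65 at 2%, against 6.57, 6.18 and 5.26 at 1%. The 2% arrays were all under 5 and below the 1% arrays, but the vessels differed widely and it did not pass (-1.95 ± 0.42; adjusted p = 0.0627). IL33 met the filter only through its 1% arrays. CXCL1 (-0.48; adjusted p = 0.0599) and CXCL8 (0.00; adjusted p = 0.996) did not pass either. Over the 15 genes the median was -0.34, against -0.02 over all genes, with 12 estimates below 0 and 3 above. Of the 15, 9 had an unadjusted p under 0.05 in limma, all of them below 0, beside 22.3% of all genes. PTGS2, the inducible cyclooxygenase, had 5.29, 4.53 and 5.55 at 2%, against 5.62, 6.32 and 6.32 at 1% (-0.96 ± 0.24; adjusted p = 0.0782). Of 9 prostaglandin genes 0 passed (3 at an unadjusted p under 0.05, beside 22.3% of all genes).

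Genes of growth arrest and the early response moved in single members. Over all genes tested 0.512% rose, and 1 call in a small list describes that gene and not its list. CDKN1C was the 1 of 12 growth arrest genes that rose. CDKN1A, the p21 inhibitor, had 10.80, 11.03 and 10.84 at 2%, against 10.71, 10.78 and 10.98 at 1%, with overlap (0.06, interval -0.15 to 0.28; adjusted p = 0.73). EGR3 was the 1 of 17 immediate-early genes that rose. FOS, a subunit of AP-1, had 9.05, 9.57 and 9.05 at 2%, against 8.49, 8.71 and 8.65 at 1%, with no overlap, but did not pass (0.61 ± 0.15; adjusted p = 0.0836). DHRS2 was the 1 of 7 deacetylase-inhibitor response genes, DNER the 1 of 9 Notch pathway genes and ANKRD1 the 1 of 8 YAP targets that rose. ANKRD1 met the filter only through its 2% arrays, so its rise says nothing about YAP targets as a group. CCN2, another YAP target and a matrix-associated growth factor, had 12.72, 12.87 and 12.50 at 2%, against 11.90, 11.91 and 11.91 at 1% (0.79 ± 0.16; adjusted p = 0.0569).

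Of 9 histone genes 0 passed in the second step (4 at an unadjusted p under 0.05, beside 22.3% of all genes). From 0% to 1%, 8 of 9 rose, beside 6.86% of all genes. H4C8, a histone H4 gene, had the largest estimate (0.59; adjusted p = 0.175). Single members also passed among amino acid transporters (the glutamate transporter SLC1A1, -0.49; adjusted p = 0.0453) and genes opposing apoptosis (BCL2L2, -0.35; adjusted p = 0.0461). In the ion transport list KCNE3 and SCNN1A were the 2 of 8 that fell. ALDH3A1 was the 1 of 11 aldehyde dehydrogenases and the 1 of 7 aryl hydrocarbon receptor genes that fell. The share of all genes that fell was 1.28%. CPT1A, which brings long-chain fatty acids into mitochondria, differed by -0.12 (interval -0.31 to 0.07), and 0 of 15 fatty acid oxidation genes passed (6 at an unadjusted p under 0.05). No gene passed among 12 NRF2 antioxidant, 15 ATF4, 9 heat shock, 15 endoplasmic reticulum chaperone, 18 ribosome biogenesis, 14 cholesterol synthesis, 20 glycolysis, 20 oxidative phosphorylation, 10 tight junction or 8 histone deacetylase genes. Counted once, these lists held 140 genes, of which 24 had an unadjusted p under 0.05 (17 below 0, 7 above), beside 22.3% of all genes. The lists differed. Of the 15 endoplasmic reticulum chaperone genes 6 had such a p, all below 0, and 14 estimates were below 0. Of the 12 NRF2 genes it was 4 (3 below 0, 1 above), with 11 estimates below 0. Of the 20 oxidative phosphorylation genes it was 1.

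In the first step, 1% minus 0%, 1111 genes passed, 12.9% of those tested, with 590 up and 521 down. This count too rested on single arrays: it was 189 without 1% vessel 4, 230 without 0% vessel 3, 420 without 0% vessel 2, 446 without 0% vessel 4, 570 without 1% vessel 2, 609 without 1% vessel 3 and 746 to 1183 without one of the 2% arrays. Without all arrays of vessel 2, 3 or 4 it was 28, 421 and 0. Both steps use the same 1% arrays, so an error in those arrays moves the 2 steps in opposite directions, and the values are given side by side without a test of their likeness. Of the 154 genes of the second step, 93 had also passed in the first with the same sign and responded further at 2% (31 rose, 62 fell). Another 59 passed in the second step only (11 rose, 48 fell), and 2 passed in both with opposite signs.

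Among genes that responded further, ALDH3A1 averaged 8.82, 7.50 and 6.19 at 0%, 1% and 2%, with steps of -1.31 and -1.32. HMGA2 averaged 7.77, 6.47 and 5.34, with steps of -1.30 and -1.13, and UBE2C averaged 9.46, 8.57 and 7.85, with steps of -0.89 and -0.73. ZCCHC12 averaged 4.92, 6.20 and 7.77, with steps of 1.28 and 1.57. The test of unequal steps did not pass for any of these 4 genes. Over the 31 rises of this class the median step was 0.60 from 0% to 1% and 0.60 from 1% to 2%, and over the 62 falls it was -0.56 and -0.61. Since a gene had to pass both tests to be in the class, these medians describe it and support nothing.

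Among genes of the second step only, COL4A2 had a first step of -0.43 (adjusted p = 0.0643), AIFM2 of -0.28 (adjusted p = 0.0972) and RCCD1 of -0.24 (adjusted p = 0.172). Their second steps were -1.11, -0.78 and -0.77. BARD1 (-0.23) and BCL2L2 (-0.06) had first steps in the same direction too, as had 40 of the 48 falls and 8 of the 11 rises of the class. GATM, the first enzyme of creatine synthesis, turned: it averaged 6.44, 6.05 and 6.55 at 0%, 1% and 2%, with a first step of -0.39 (adjusted p = 0.013) and a second of 0.50 (adjusted p = 0.022). In GATM the 1% array lay below the 0% and the 2% array of its own vessel in all 3 vessels. The other gene that turned was GTF2H3, a subunit of transcription factor TFIIH, with steps of -0.33 and 0.36.

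**Figure D3:**
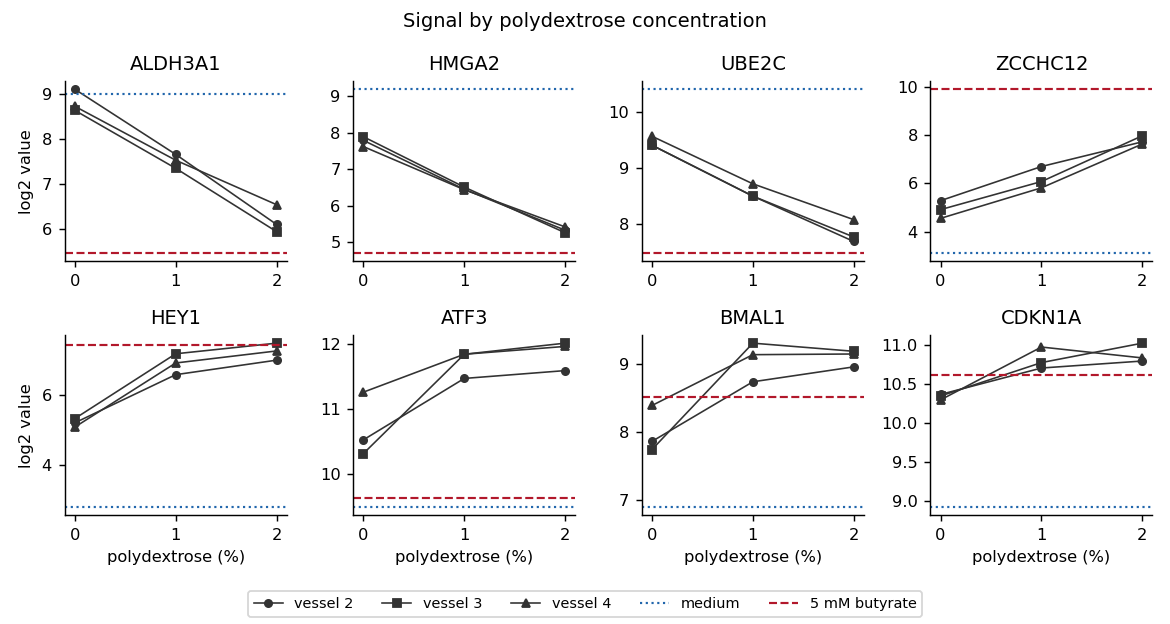
Signal (log2 GCRMA value) at 0%, 1% and 2% polydextrose in vessels 2, 3 and 4 for 8 genes, with the single arrays of 5 mM butyrate (dashed) and medium (dotted) as horizontal lines. The top row shows genes that responded further, such as HMGA2 at 7.77, 6.47 and 5.34. The bottom row shows genes with a smaller second step, such as HEY1 at 5.20, 6.87 and 7.22.

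Whether a gene levelled off was asked by testing the second step minus the first. With limma 0 of 8595 genes passed (0%), the smallest adjusted p was 0.341, and 965 genes (11.2%) had an unadjusted p under 0.05. No gene was therefore called levelled off, and 1016 genes passed in the first step without a second step that passed or a test that showed the steps unequal. The median standard error of this contrast was 0.155, against 0.09 for a single step. Of the 6 genes with the smallest p, which did not pass, HEY1, a transcription factor downstream of Notch, had 5.20, 5.32 and 5.08 at 0%, 6.56, 7.15 and 6.89 at 1%, and 6.97, 7.45 and 7.23 at 2%. Its first step was 1.67 and its second 0.35 (interval 0.11 to 0.59; adjusted p = 0.111 for the second step and 0.341 for the inequality). GATM, TMA16, ABTB2, SMAD1 and SHROOM2 were the other 5. CDKN1A had a first step of 0.48 and a second of 0.06.

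How far 1% had gone towards 2% was also described for genes with a change of at least 1 log2 unit between 0% and 2%, no overlap between those arrays, and values of 5 or more in all 3 arrays of the lower group (0% for rises, 2% for falls). The choice was made on the 0% and 2% arrays. The limit of 5 leaves out genes that started or ended lower, such as ZCCHC12, DHRS2, DNER and EPS8L3. In 72 such rises the level at 1% had covered a median of 63.2% of the log2 change (quartiles 52.9% and 71.3%). The medians by vessel were 62.6%, 60.4% and 68.4%, and their mean was 63.8% ± 4.13 (SD, n = 3 vessels). In 126 falls the median was 53.5% (quartiles 45.9% and 60.6%), with 52.9%, 48.4% and 57.0% by vessel and a mean of 52.8% ± 4.31 (SD, n = 3 vessels). The share was higher for rises than for falls in each of the 3 vessels. With 3 vessels a side no test was made of this difference, and genes of 1 culture are not independent. A share of 50% means equal steps on the log2 scale.

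At the high end of the rises stood BMAL1, a core clock transcription factor, at 96.7%, and ATF3, a stress-induced transcription factor, at 88.0%. BMAL1 had 8.96, 9.19 and 9.15 at 2%, against 8.74, 9.31 and 9.14 at 1%, and 7.86, 7.74 and 8.39 at 0%. ATF3 had second and first steps of 0.14 and 1.01. At the high end of the falls were DOCK8, a guanine nucleotide exchange factor, at 115% and WNT5A, a Wnt ligand, at 85.6%. WNT5A averaged 6.24, 5.37 and 5.23 at 0%, 1% and 2%. Its levels at 1% and 2% were near the limit of 5, and the part of low signal in its share was not tested. DOCK8 at 1% was low through vessel 3 (6.29, 5.05 and 5.88 in vessels 2, 3 and 4). At the low end of the falls was CYP1A1, the cytochrome P450 induced through the aryl hydrocarbon receptor, at 16.7%. RCCD1 (23.6%), AIFM2 (26.5%), COL4A2 (28.2%), NEK6 (30.1%), C4BPB (31.7%) and AURKB (31.8%) came next. Mitosis genes lay at both ends of the falls, with KIF23 at 82.5%. CYP1A1 had 8.02, 8.03 and 8.36 at 2%, against 8.44, 8.67 and 9.91 at 1%, and vessel 4 at 1% stood apart from the other 2. Among rises COL1A1 was low, at 29.9%. BMAL1, ATF3, DOCK8, WNT5A, NEK6, C4BPB and KIF23 were named after their values were seen.

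**Figure D4:**
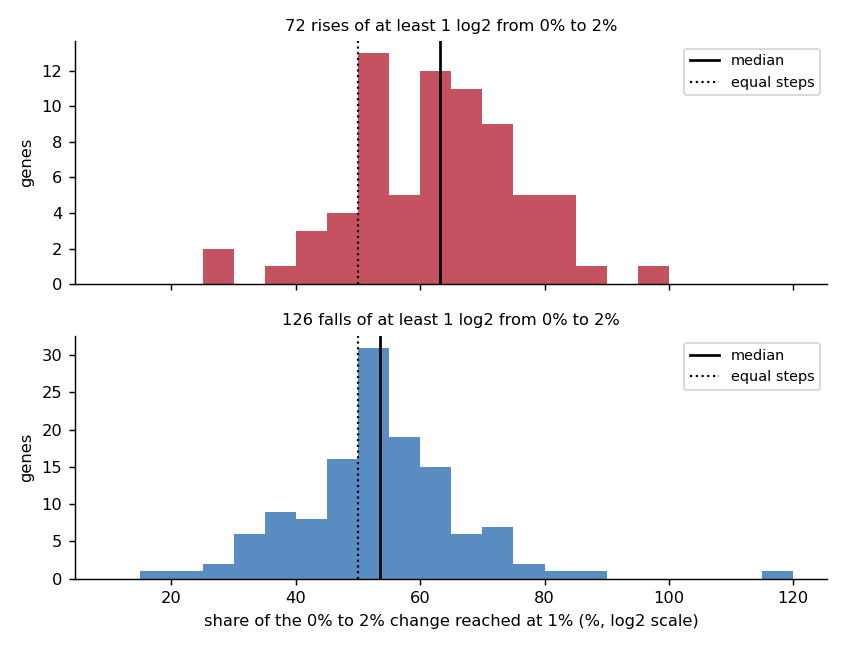
Number of genes (vertical axis) by the share of their 0% to 2% change reached at 1% (%, log2 scale), for 72 rises (top) and 126 falls (bottom) whose lower group was at 5 or more. The solid line is the median, 63.2% for rises and 53.5% for falls, and the dotted line at 50% marks equal steps.

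The ascending colon vessel gave the same dose step from 1 array each. Of the genes that rose in vessels 2 to 4, 38 of 44 (86.4%) were also higher at 2% in vessel 1, and of those that fell, 98 of 110 (89.1%) were also lower. Over all tested genes the shares were 61.4% for steps above 0 and 67% for steps below 0. Mitosis had a median step of -0.30 there. EGR3 differed by 0.01 in vessel 1, against 1.05 in the later vessels, and LGR5 by 0.48, against -0.75. The test of the difference between vessel 1 and the later vessels passed for 0 of 8595 genes (0%) with limma, while 1118 (13.0%) had an unadjusted p under 0.05. Vessel 1 had 1 array at each concentration, and its spread was taken to be that of the later vessels, so these counts do not show that the vessels respond alike. Across genes the step correlated between vessels at r = 0.229 (vessels 2 and 3), 0.359 (2 and 4) and 0.492 (3 and 4) over 8595 genes, and the mean step of vessels 2 to 4 correlated with that of vessel 1 at 0.381. Each of these vessels had its own arrays, while the vessels of a simulation share its run.

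Most genes of the step had the same sign in pure butyrate. Of the genes that rose, 42 of 44 (95.5%) were higher in the 5 mM butyrate array than in the medium array, and of those that fell, 103 of 110 (93.6%) were lower, beside 71% and 64.3% over all tested genes with a step above and below 0. Across all 8595 genes the step correlated with butyrate minus medium at r = 0.57 (Spearman 0.51) and with NaCl minus medium at 0.067 (Spearman 0.019). These 3 arrays are single and share none with the dose step. Butyrate minus medium was 7.97 for DHRS2, 7.59 for DNER, 6.76 for ZCCHC12 and 5.14 for CDKN1C, and was -4.48 for HMGA2, -4.65 for KCNE3, -3.54 for ALDH3A1 and -2.93 for UBE2C. In medium DHRS2, DNER and ZCCHC12 were at 1.82, 1.58 and 3.12, and in butyrate HMGA2 was at 4.70. These values are under 5, so the sizes of these differences are uncertain. Mitosis had a median of -2.10. RBBP5 rose with the dose and differed by 0.74 in butyrate, while GTF2H3, which also rose, differed by -0.75. CPT1A had 2.99 in butyrate minus medium beside a second step of -0.12. Butyrate was not measured in the fluids in the sources used here.

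**Figure D5:**
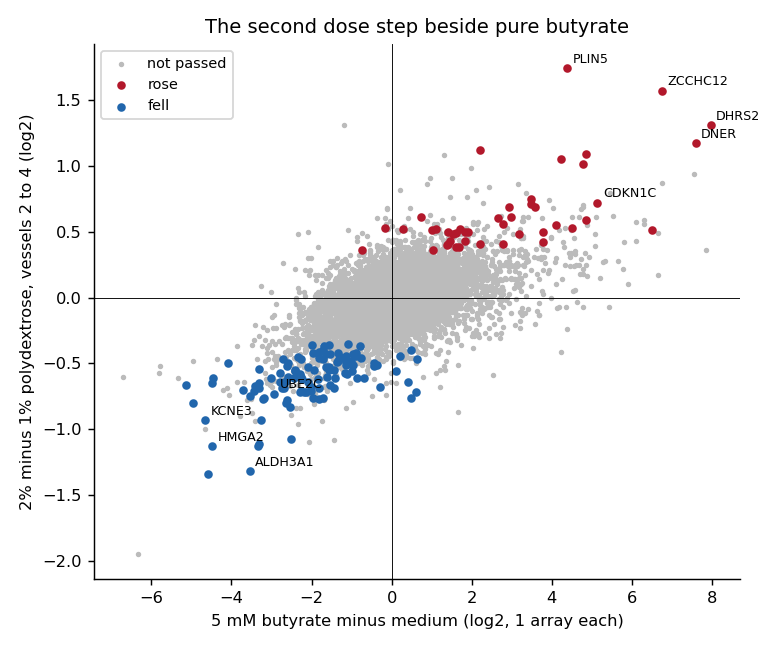
Difference between 2% and 1% polydextrose in vessels 2 to 4 (log2, vertical axis) against 5 mM butyrate minus medium (log2, single arrays, horizontal axis) for 8595 genes. Red points rose, blue points fell and grey points did not pass. Red points lie mostly to the right (42 of 44 above 0) and blue points to the left (103 of 110 below 0).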

How the data were processed

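Caco-2 RNA was measured on 15 Affymetrix arrays, 1 per treatment. The authors deposited log2 values of 54675 probe sets, made with GCRMA per the submitters' processing notes (no version given), a method of background correction, normalization and probe summary. The log2 scale was inferred from the values, which run from 0.1729 to 14.4575. The chip description was not stated in the sources used. Arrays have no read depth, and their number limits the precision.

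Of all probe sets 41097 had 1 gene symbol, 1801 several and 11777 none. Each of 19775 genes was read from 1 probe set, that of the highest mean signal across 15 arrays. Genes with log2 of at least 5 in at least 3 of the 6 arrays (8595) were tested.

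limma 3.58.1 in R 4.3.3 was fitted to 9 arrays (0%, 1% and 2%, vessels 2 to 4) with concentration and vessel as factors, which left 4 residual degrees of freedom. The 0% arrays add to the estimate of spread and do not move the difference between 2% and 1%. Tests were two-sided and Benjamini-Hochberg adjusted over all 8595 genes at 0.05, and the script was tested on simulated data. Intervals are 95% and unadjusted.

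The arrays, the 46 gene lists and the genes named were chosen with earlier results of these data known. Named were the 12 largest passing rises and falls with all 6 arrays at 5 or more, up to 3 members of each list by p, 6 genes by p where nothing passed, and 14 genes in any case. Genes outside this rule are marked in the text, and CXCL8, EGFR, ERBB3, H4C8 and ORC1 were likewise named after their values were seen. The share of change reached at 1% was chosen after seeing the data. Alternatives covered the block, filter, probe set choice, normalization, variance model and left-out arrays.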

Additional observations from a re-analysis of the deposited data

How the results depend on the processing

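The count of genes that passed for 2% minus 1% (154, with 44 up and 110 down) depended on the settings. It was 75 (23 up, 52 down) with no filter, 65 (19 up, 46 down) with every probe set tested, 376 (135 up, 241 down) with array weights, 588 (225 up, 363 down) with a trended robust prior, and 0 (0 up, 0 down) with only the 6 arrays, with vessel 1 added or with a minimum 1.5-fold change (1675, 1597 and 25 at an unadjusted p under 0.05). Rises were 69 with the filter at log2 6 and 67 with median centring. Leaving out 1 array or all arrays of 1 vessel gave 0 to 92 passed (0 to 26 up, 0 to 66 down) and 1271 to 1898 at an unadjusted p under 0.05. The count was 29 without 0% vessel 2, 92 without 0% vessel 3, 75 without 0% vessel 4, 7 without 1% vessel 2, 0 without 1% vessel 3 or 1% vessel 4, 1 without 2% vessel 2 or 2% vessel 3, and 4 without 2% vessel 4. The mitosis genes that fell were 13 in the fit reported and 0 to 8 when an array was left out.

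For 1% minus 0% the count was 691 with no filter, and 0 to 1183 when an array or a vessel was left out, with 0 when all arrays of vessel 4 were left out and 189 without 1% vessel 4. Genes that responded further were 44 with no filter, 37 with every probe set, 265 with the robust prior, 184 with array weights and 0 to 43 when an array or vessel was left out. Genes of the second step only were 30, 27, 307 and 181 under the same settings, and 0 to 49 on leaving out. No setting that was run gave a gene levelled off or a passing test of unequal steps. The share reached at 1% was 61.8% to 63.4% for rises and 53.5% to 55.4% for falls under 4 alternatives.

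Without the replicate block on vessel, 233 genes passed (81 up, 152 down), of which 132 were among the 154, and 110 were of the second step only. The vessel numbers did not clearly pair the arrays: 3 of 9 same-vessel pairs had deviations correlated above 0.1 (range -0.311 to 0.333), and for 4 of 9 arrays the best match was of the same vessel. The median was 0.036 for pairs of the same vessel and 0.034 for pairs of different vessels. Same-vessel pairs of a 2% and a 1% array, the groups compared here, ranged from -0.238 to -0.01, so none was positive.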
